A study of Mus musculus with 2 samples.

Results

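The Nfia locus was examined as a window of 430 kb on chromosome 4, chr4:97400000-97830000 in build mm9, and every deposited region that overlaps it was taken as a member. This gave 82 of the 61400 regions of the list and of the 3743 regions of chromosome 4. The locus was chosen because it was known to hold many regions, so the number and the packing of its regions are descriptions and no test was applied to them. Each region is a stretch where a library of histone H4 chromatin from cells given SAHA held more sequenced tags than the caller's background. That background came from a library of cells given only the solvent DMSO or was the genome-wide mean of SAHA tags. The cells were MC3T3 sc4, a mouse osteoblast line from calvaria, kept in osteogenic medium with ascorbic acid and beta glycerol phosphate. On day 4 they received 20 µM SAHA (suberoylanilide hydroxamic acid, also called vorinostat) or DMSO for 2 hours, followed by a collagenase digest of 40 min in the continued presence of the drug or solvent. Each condition was 1 library, so no difference here has a replicate check. The labels name 1 cell line for both libraries and give no genotype or allele.

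Nfia encodes nuclear factor I A, a transcription factor that binds DNA as a dimer and is known for its part in the formation of glia and of midline tracts in the developing brain, and in the gene program of brown fat cells. Histone acetyltransferases add acetyl groups to lysines of the histone H4 tail, and histone deacetylases remove them. SAHA blocks the zinc-dependent deacetylases, so acetyl groups on histones are removed more slowly while it is present. The antibody label reads histone H4, while the series design speaks of H4 acetylation. No exon, intron or start site was placed on the mm9 map, so no region is assigned to a promoter, an intron or a UTR. In the RefSeq annotation of another build, GRCm38, Nfia (gene ID 18027, 9 transcripts) spans 540.8 kb from its first to its last transcript end. That is 110.8 kb more than the window, so the window cannot hold that whole span. By order in that annotation the protein-coding neighbours are Cyp2j5 and Gm12695 on one side and Tm2d1 and Patj on the other, and 4 long noncoding RNA genes lie inside the span. The list holds no transcript levels, so it was not checked whether these cells express Nfia or the markers of osteoblasts.

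The SAHA library kept 123676661 tags and the DMSO library 76214516, after removal of 2.57% and 34.4% of their tags as duplicates, so DMSO tags were weighed 1.62 times. This unequal loss moves with the condition throughout, and its part in the results was not tested.

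The regions were packed into a long stretch in the left and middle of the window and were sparse on both sides of it. In all they covered 160.2 kb, or 37.3% of the window, and held 30622 SAHA tags. The first region began 12.05 kb into the window, and 43.5 kb after the last region held none. The first and the last region stood 374.4 kb apart. Divided into bins of 10 kb, 11 of 43 bins held no part of a region and 15 were more than 50% covered. The fullest bin, 100 to 110 kb from the window's start, was 99.1% covered. The most summits in a bin were 5, found from 60 to 70 kb and from 230 to 240 kb.

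**Figure D1:**
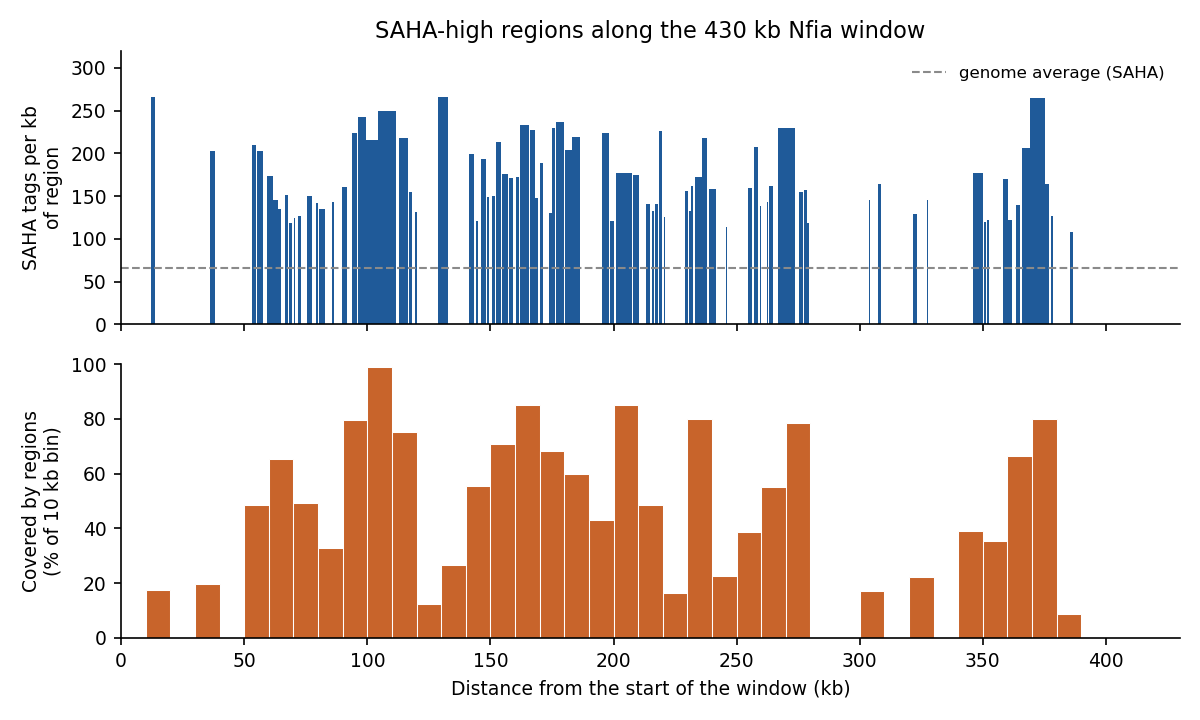
The upper panel plots each region as a bar whose width is its length and whose height is its SAHA tags per kb, and the dashed line is the genome average of 66.1 tags per kb. The lower panel plots the percentage of each 10 kb bin covered by regions, with 11 empty bins, of which 3 lie before the core cluster and 8 after it.

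When gaps of up to 10 kb were bridged, 65 of the 82 regions fell into a core cluster of 226.5 kb, chr4:97453054-97679569, covered to 57.2%. Before the core lay 2 regions. The first, chr4:97412047-97413784, held 463 SAHA tags (95% Poisson interval 422 to 507) with a summit fold of 2.94. The second, chr4:97436103-97438079, held 402 SAHA tags with a summit fold of 2.84. After the core lay 15 regions, which covered 17.9% of the remaining 150.4 kb. Of these, 11 formed a second, smaller cluster of 40.4 kb at chr4:97746103-97786454. It was covered to 56.8%, a share close to that of the core.

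Between neighbouring regions, leaving aside the 43.5 kb after the last one, the 5 longest gaps together made up 92.9 kb, or 21.6% of the window. The longest gap, 24.3 kb at chr4:97679570-97703832, followed the end of the core. The next, 22.3 kb at chr4:97413785-97436102, lay between the first and the second region. A gap of 18.2 kb at chr4:97727861-97746102 preceded the smaller cluster. The other two were 15.0 kb at chr4:97438080-97453053, just before the core, and 13.1 kb at chr4:97708544-97721667. All 5 gaps lay outside the core. Within the core the longest gap was 8.78 kb and 4 gaps exceeded 8 kb. A stretch without a region had no excess of SAHA tags past the caller's cutoff; it need not lack H4 signal in either library.

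Over the whole locus, long gaps included, most neighbouring regions stood close together. Of the 81 gaps between neighbours, 45 (55.6%) were at most 1 kb, against 35.4% on the rest of chromosome 4, and 11 were at most 100 bp. The median gap was 839 bp (quartiles 321 and 2311 bp), against 3000 bp on the rest of the chromosome. From summit to summit the median spacing was 2815 bp, against 5845 bp. In the core the median gap was 706.5 bp and after it 1528 bp. A window chosen for many regions must have short gaps, so these values describe the choice.

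Joined across gaps of up to 1 kb, the 82 regions formed 37 runs, of which 17 were a single region. The run with most regions, 6, spanned 24.7 kb at chr4:97493571-97518268, was covered to 92.5% and held 5213 SAHA tags. There were 4 runs of 5 regions, all in the core. They lay at chr4:97573845-97586408, chr4:97560432-97571186, chr4:97628949-97637942 and chr4:97613286-97621056, and spanned 12.6, 10.8, 8.99 and 7.77 kb. The 5 runs held 26 of the 82 regions. Whether the caller divided broader stretches into several regions was not tested.

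Single regions were longer at the median than on the rest of the chromosome, but fewer of them were very long. The median was 1590 bp (quartiles 992 and 2271 bp), against 1346 bp (870 and 2507 bp) on the rest of chromosome 4. Regions longer than 5 kb numbered 4 of 82 (4.88%), against 7.98% on the rest of the chromosome. Regions shorter than 1 kb numbered 22 (26.8%), against 33.3%. The longest was chr4:97504325-97511773, of 7449 bp, within the run of 6. Next came chr4:97666697-97673686 with 6990 bp, chr4:97601204-97607626 with 6423 bp, chr4:97769041-97775111 with 6071 bp and chr4:97499355-97504230 with 4876 bp. The same 5 regions also held most SAHA tags, from 1052 to 1860. The shortest was chr4:97703833-97704332, of 500 bp, which held 73 SAHA tags. The 10 regions with most tags held 38.0% of the tags in the locus.

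The density of SAHA tags inside the regions was close to that of the chromosome at large. The median was 159.9 tags per kb (quartiles 139.2 and 206.0), against 160.9 (135.3 and 201.3) on the rest of chromosome 4. The range ran from 108.4 to 266.4 tags per kb, while single regions elsewhere on the chromosome reached 525.4. All tags over all covered bases gave 191.1 per kb in the locus and 215.7 on the rest of the chromosome. The densest region was the first one, with 266.4 tags per kb. It was followed by chr4:97528772-97532678 with 265.7 and chr4:97769041-97775111 with 264.7. The lowest density, 108.4, was that of the last region, chr4:97785588-97786454. Longer regions tended to be denser, with a Spearman rho of 0.75 across the 82 regions and 0.74 across the 3661 others of chromosome 4. All these points share 1 SAHA library and 1 score cutoff.

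**Figure D2:**
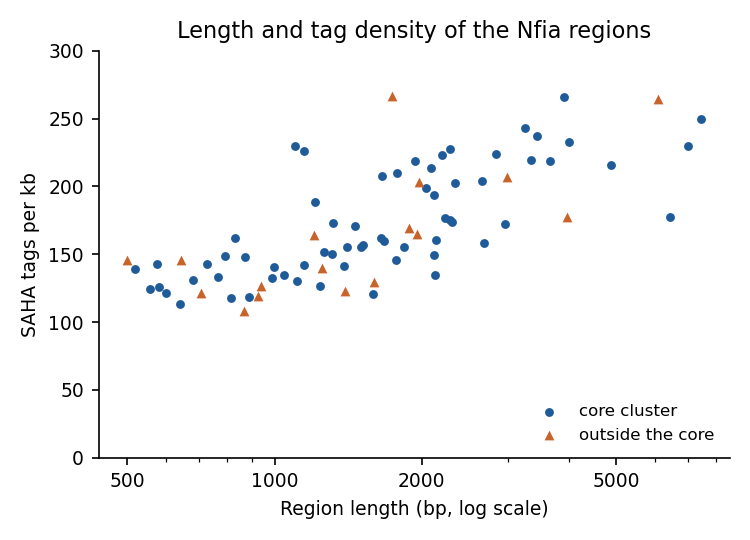
Each point is a region of the locus, with its length in bp on a log axis and its SAHA tags per kb on a linear axis. Circles are the 65 regions of the core cluster and triangles the 17 outside it; denser regions tended to be longer, and the first region, at 1738 bp and 266.4 tags per kb, lies above the others of its length.

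Regions of the core had higher medians than those of the stretch after it. The median length was 1651 bp in the core and 1250 bp after it. The median density was 160.2 and 146.0 SAHA tags per kb. The median summit fold was 4.29 and 4.05, where the summit fold, the score and the FDR are the authors' own values for each region. These pairs of values come from 65 and 15 regions of the same libraries and were not tested.

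A summit fold compares the highest SAHA point of a region with the caller's background. That background can be the genome-wide mean of SAHA tags, which holds no DMSO tags. Which folds rest on that mean was not worked out. In the locus the median fold was 4.18 (quartiles 3.55 and 5.08), against 3.97 (3.37 and 4.76) on the rest of chromosome 4. A fold of at least 5 was reached by 21 of 82 regions (25.6%), against 19.0% of all 61400 regions. Of these 21, 19 lay in the core and 2 after it. Closest to the limit were folds of 5.15 and 5.26 above it and 4.89 and 4.84 below it. Since the list holds only regions past the caller's cutoff, and the locus was chosen from it, nothing is read from this difference.

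The highest fold, 7.93, was not in the core but at chr4:97769041-97775111 in the smaller cluster. That region held 1607 SAHA tags (95% Poisson interval 1529 to 1688) and had a score of 1806.86, where the score is 10 times the negative log10 of the caller's Poisson p and the cutoff is 50. By score it was region 70 of 3743 on the chromosome, and no other region of the locus came before rank 234. Its summit lay 6.61% of the way along its length, next to a region of fold 3.38 that ended 30 bp before it.

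In the core the highest fold was 7.42, at chr4:97569979-97571186, a region of 1208 bp with 228 SAHA tags (199 to 260). It was followed by 6.71 at chr4:97595191-97598026 with 634 SAHA tags (586 to 685). A fold of 6.05 was listed at chr4:97455104-97457439 with 473 SAHA tags (431 to 518). A fold of 5.90 was shared by chr4:97461866-97463636, with 258 SAHA tags (227 to 291), and chr4:97493571-97495771, with 492 SAHA tags (449 to 537). These 5 lay in the first part and in the middle of the core. The lowest folds of the locus were 2.60 at chr4:97583069-97586408 and 2.62 at chr4:97758164-97760044.

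The median score was 176.7, against 137.8 on the rest of chromosome 4, and 60 of 82 regions (73.2%) scored at least 100, against 63.0%. The deposited FDR ran from 58.37% to 100%, and stood at 100% in 10 regions (12.2%), against 13.0% on the rest of the chromosome. Those 10 included chr4:97769041-97775111, which has the highest fold and score of the locus. They also included all 5 regions with the highest ratio of SAHA tags to the DMSO level, given below. Folds of 6.71 and 6.05 came with 100%, the fold of 7.42 with 72.8%, and the pair at 5.90 with 70.9% and 100%. A high fold, score or ratio thus did not go with a low FDR. As MACS is known to define it, though no header says so, the FDR sets calls made with SAHA and DMSO exchanged against the listed ones at the same score or above. Regions with more tags in DMSO were not analysed here.

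The list gives no DMSO count per region, so the background behind each score, here called the DMSO level, was recovered from the tags and the score. It is expressed relative to the genome-wide mean of 66.1 SAHA tags per kb. In 15 of 82 regions (18.3%, against 19.9% on the rest of chromosome 4) the level was this mean itself, which holds no DMSO tags. The median level over the locus was 1.28 times the average (quartiles 1.02 and 1.67), the same as the 1.28 of the rest of chromosome 4. It was at or below the average, within 0.1%, in 20 of 82 regions, from there up to 1.5 times in 35, from 1.5 to 2 times in 16 and at least 2 times in 11. The highest level, 3.14 times the average, was that of the first region of the window. It was followed by 2.77 at chr4:97528772-97532678 and 2.68 at chr4:97583069-97586408. In 62 regions the level matched a background open to the caller, to within the score's rounding. In the 55 of these without a DMSO count of their own it is an upper limit of the DMSO tags. In the other 20 it is approximate, and in 5 of those it came out under that mean, which the caller's method should not permit.

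Taken over whole regions, the SAHA tags came to 1.84 times the recovered DMSO level at the median (quartiles 1.65 and 2.14), against 1.80 (1.60 and 2.06) on the rest of chromosome 4. The ratio was at least 2 in 28 of 82 regions (34.1%), against 28.0% of the 61106 regions of the list with a recovered level. Where the level was the genome-wide mean, as in 15 of the 82 regions, the ratio sets SAHA tags against the SAHA mean and holds no DMSO count. Some of the 28 are such regions, and others among the 28 have an approximate level. Over the locus the ratio ran from 1.24 to 2.65, and the highest ratio elsewhere on the chromosome was 4.28. The highest, 2.65 (95% Poisson interval of the SAHA tags 2.43 to 2.89), was at chr4:97565951-97568237 with 520 tags. Next were 2.64 (2.44 to 2.86) at chr4:97595191-97598026 and 2.58 (2.36 to 2.82) at chr4:97493571-97495771. Then came 2.50 (2.26 to 2.76) at chr4:97459253-97461556 and 2.49 (2.25 to 2.74) at chr4:97546140-97548262, both with an approximate level. All 5 lay in the core, and their intervals overlap. The lowest ratio, 1.24 (1.15 to 1.33), was that of the region with the lowest fold, chr4:97583069-97586408. These intervals cover counting error of the SAHA tags only.

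**Figure D3:**
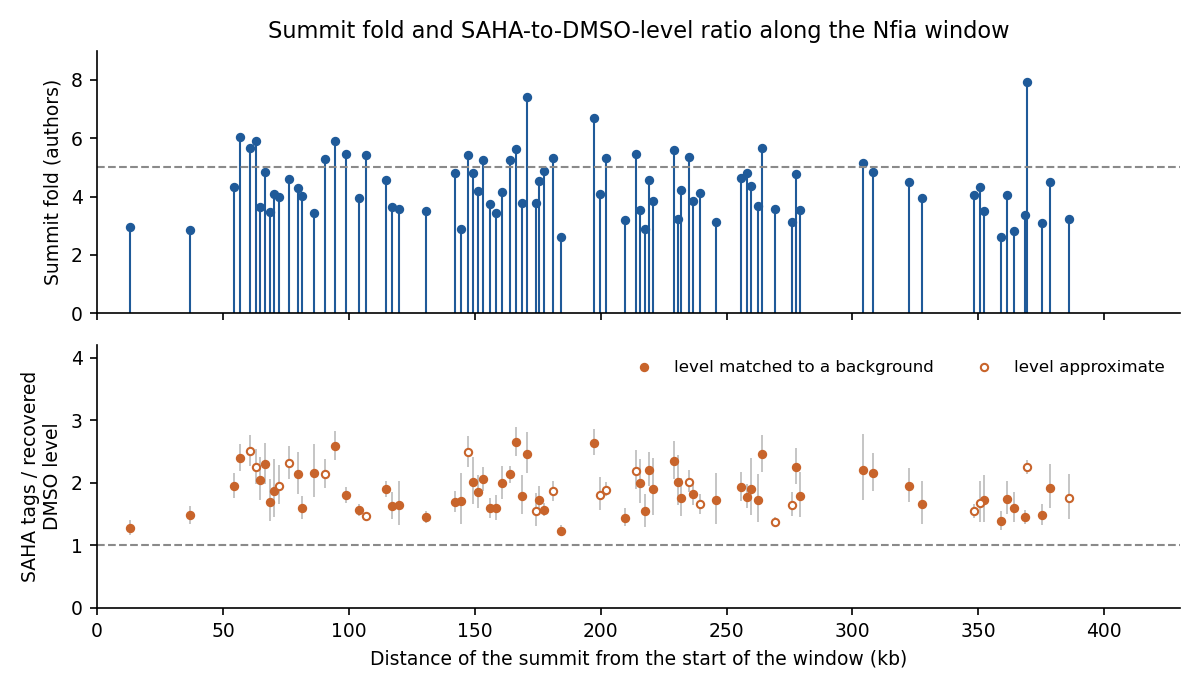
The upper panel plots the authors' summit fold at each summit, with a dashed line at 5; 21 of 82 summits reach it and the highest, 7.93, lies in the smaller cluster. The lower panel plots SAHA tags over the recovered DMSO level with 95% Poisson intervals of the SAHA tags, filled where the level matched a background and open where it is approximate, from 1.24 to 2.65, with a dashed line at 1.

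The regions with the longest span were not those with the highest ratio. The longest region, chr4:97504325-97511773, held 1860 SAHA tags at a DMSO level of 2.58 times the average, a ratio of about 1.46. In chr4:97666697-97673686, 1605 SAHA tags stood at 2.51 times the average, a ratio of about 1.38. The 11 regions with a level of at least 2 times the average were 3340 bp long at the median, with a median ratio of 1.46. The 20 at or below the average were 1017 bp long at the median, with a median ratio of 2.03. None of these 20 has a DMSO count behind its level. In 15 the level is the genome-wide SAHA mean, and in 5 it is an approximate value under that mean. On the rest of chromosome 4 the medians were 3799 bp and 1.43 against 844 bp and 2.00. Part of this order is built in, since a long region passes the cutoff at a smaller ratio and the level stands in the ratio itself. The region of highest fold, chr4:97769041-97775111, combined a length of 6071 bp with a ratio of about 2.25.

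For 7 regions the recovered level was a whole number of DMSO tags in the region itself, so both libraries can be set side by side. At chr4:97561826-97565823 there were 932 SAHA tags and 269 DMSO tags, a ratio of 2.14 after scaling (95% exact binomial interval 1.86 to 2.45). At chr4:97496093-97499346, in the run of 6 regions, there were 791 SAHA tags and 271 DMSO tags, a scaled ratio of 1.80 (1.56 to 2.07). At chr4:97608037-97610321 there were 400 SAHA tags and 171 DMSO tags, a scaled ratio of 1.44 (1.20 to 1.73). The first of these intervals does not overlap the last, but this pair was picked after the values were seen and the difference was not tested. At chr4:97677214-97678727, near the end of the core, 238 SAHA tags and 65 DMSO tags gave 2.26 after scaling (1.71 to 3.02). At chr4:97631364-97632192 there were 134 SAHA tags and 47 DMSO tags, a scaled ratio of 1.76 (1.25 to 2.50). After the core, chr4:97775114-97777069 held 322 SAHA tags and 133 DMSO tags, a scaled ratio of 1.49 (1.22 to 1.84). The smallest, chr4:97727217-97727860, held 94 SAHA tags and 35 DMSO tags, a scaled ratio of 1.66 (1.11 to 2.51). All 7 intervals lie above 1, which the calling of the regions makes likely, and they cover counting error only.

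Against windows of the same size on chromosome 4 the locus was high in number of regions and in share covered. It was chosen for its many regions, so its place among the windows describes that choice. Windows of 430 kb were laid end to end from the locus over the chromosome, which gave 361 others, 141 of them without a region. Stretches to which no tag can be mapped were not left out of these windows. No other window held as many regions as the 82 of the locus. The median was 3 regions, the upper quartile 15 and the highest 74, at chr4:149860000-150289999. The windows that followed held 70 regions at chr4:81920000-82349999, 58 at chr4:63860000-64289999, 56 at chr4:56120000-56549999 and 53 at chr4:64290000-64719999. By share covered, 1 window was above the 37.3% of the locus, with 40.5%. The rank depends on where windows begin: when they are shifted so that 2 windows divide the core, the fuller of them ranks 6 by number.

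The region cluster did not run on into the windows next to it. The window to the left held 7 regions over 2.27% of its length, and the window to the right 11 regions over 4.06%. The nearest region outside the window was 123.3 kb before the first region of the locus, at chr4:97287012-97288717. On the other side it was 68.2 kb after the last, at chr4:97854617-97857544, with a summit fold of 6.43. Both distances are longer than any gap inside the window.

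**Figure D4:**
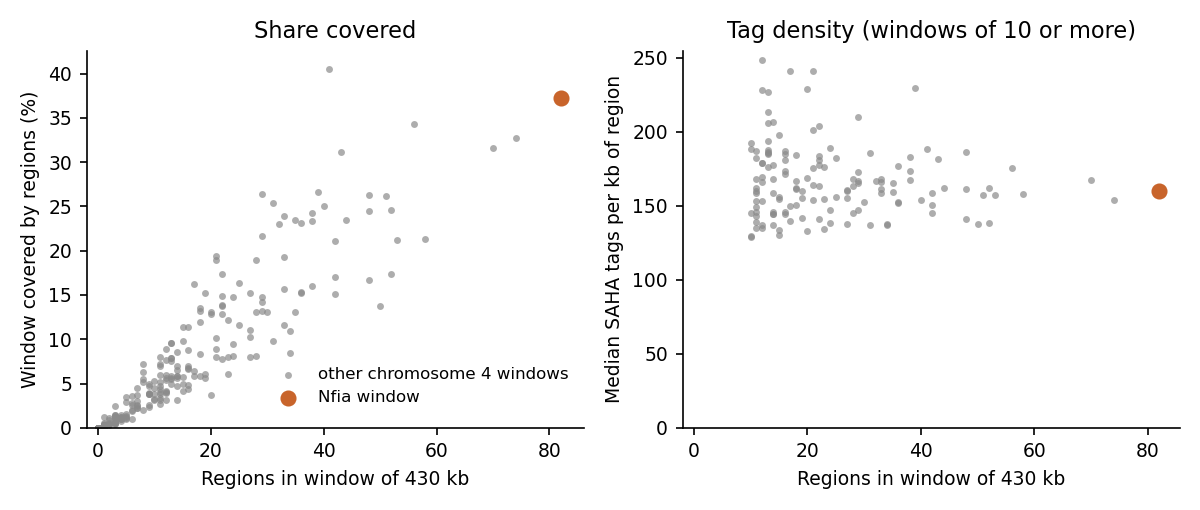
Each grey point is another 430 kb window of chromosome 4 and the orange point is the Nfia window. The left panel plots the percentage of the window covered against its number of regions, and the right panel the median SAHA tags per kb of region, for windows with 10 or more regions; the Nfia window is farthest right at 82 regions, and at 159.9 tags per kb has 77 windows above it and 61 below it in tag density.

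In tag density and in the ratio to the DMSO level the locus was near the middle of these windows, and in summit fold and length above it. Among the 138 other windows with 10 or more regions, 77 had a higher median tag density than the locus and 61 a lower one. The median ratio to the DMSO level was higher in 56 and lower in 82. The median summit fold was higher in 34 and lower in 104, and the median length was higher in 48 and lower in 89. Set beside the 19 other windows with 40 or more regions, a limit chosen after the values were seen, the order was similar. Their median tag density ran from 138.0 to 188.4 per kb, with 8 above the locus, and their median ratio from 1.68 to 1.96, with 10 above it. Their median fold ran from 3.57 to 4.61, with 4 above it.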

How the data were processed

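The deposited file lists regions in build mm9. The submitters' processing notes name MACS 1.4.0rc2, BWA 0.5.9, CASAVA 1.7.0 and SAMtools. Per the file headers, MACS took SAHA as the ChIP file and DMSO as control, with an effective genome size of 1.87e+09, a p cutoff of 1e-05, at most 3 duplicate tags per position, and local backgrounds over 1 kb and 10 kb scaled to SAHA depth. The tags column holds deposited whole counts of SAHA tags. The deposited score is 10 times the negative log10 of a p-value, and the deposited FDR is a percent. The deposited fold is a ratio of SAHA at the summit to the caller's background, from DMSO or the genome-wide SAHA mean.

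Computed here, with pandas 2.3.3, scipy 1.17.1 and numpy 2.4.6 under Python 3.11.15, were lengths, gaps, bins, runs, windows and the DMSO level, taken as the Poisson mean at which exceeding the listed tags has the p of the listed score. A level counted as matched when the score was met within 0.005 by the genome average or by whole DMSO tags, scaled, over the region, 1 kb or 10 kb. The recovery was tested on simulated data whose scores came from exactly the listed tags, so that test does not cover the unmatched regions. As background knowledge not stated in the headers, MACS takes the highest of its backgrounds.

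Regions named are the 5 of highest fold, length, tags and ratio, the first and last, the 5 longest gaps between regions and largest runs, and the 5 fullest windows; the 7 with a DMSO count, those of lowest or highest value and those next to a gap were chosen after their values were seen. The locus and all measures were chosen with earlier results of these data known. With 1 library per condition there is no test of conditions. No mm9 sequence was used.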

Additional observations from a re-analysis of the deposited data

How the results depend on the processing

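Under a score of at least 100, which must leave fewer and stronger regions, the locus held 60 regions. They covered 32.3% of the window, and their medians were 1948 bp in length, 4.57 in fold and 1.95 in ratio to the DMSO level. Without the region within 20 kb of the window's ends the share covered was 36.9%. Joining across gaps of up to 1 kb gave 37 regions, 41.3% covered, medians of 3550 bp for length and 2811 bp for the gap, by construction. Without depth scaling the median ratio was 2.98, larger by the scaling factor. The locus ranked 1 by number of regions on chromosome 4 under the stricter score, with joined regions, among windows with a region and, for the fuller part of the locus, with smaller windows. It ranked 6 with shifted windows that divide the core. Without the core cluster, an alternative added after the data were seen, 17 regions remained over 7.11% of the window, with a median of 146.0 tags per kb, a median ratio of 1.68 and 11.8% at a fold of 5 or more. An FDR limit of 1% left no region, so no value could be given. No paired analysis was possible because each condition has 1 library. Counting intervals do not cover the spread between cultures.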

Other observations

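Over all chromosomes, windows of 430 kb laid from the first base (from the locus on chromosome 4) numbered 6106, and the Nfia window ranked 17 by number of regions and 41 by share covered. The fullest, at chr16:24510000-24939999, held 108 regions over 45.1% of its length, with a median ratio to the DMSO level of 1.84, equal to that of the Nfia window after rounding. Only on chromosome 4 were the windows laid from a chosen cluster, so clusters on other chromosomes may be divided between windows. The locus was chosen for its many regions, so the ranks of the Nfia window describe that choice. Genes in the windows were not looked up.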
